A study of Schizosaccharomyces pombe with 13 samples.

Results

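Removal of introns from pre-mRNA depends on the spliceosome, a machine of small nuclear ribonucleoproteins (snRNPs) and many further proteins that is built anew on each intron. The genes described here are the 74 of 5747 sense entries in the authors' deposited table whose description names splicing, the spliceosome, or a U1, U2, U5, U6 or U4/U6 snRNP, 34 of them by the words splicing or spliceosome and 40 by an snRNP term alone. Of the 74, 31 lie on chromosome I, 29 on chromosome II and 14 on chromosome III, and all have an entry in the reference annotation. The rule reads words, not functions, so it also took 5 genes of tRNA splicing, which uses a separate endonuclease, the mitochondrial gene mss51, and min8, whose description refers to splicing of its own transcript in meiosis.

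RNA came from haploid fission yeast (Schizosaccharomyces pombe) of the ED668 background, carrying ade6-M216, ura4-D18 and leu1-32 in every strain. The 4 groups were wild type (h+, 4 libraries), a strain with xap5 replaced by KanMx4 (h+, 3 libraries), a strain with pht1 replaced by NatMx4 (h-, 3 libraries) and the double deletion with both (h-, 3 libraries). Pht1 is the histone variant H2A.Z, and Xap5 is a chromatin-associated protein whose human relative FAM50A has been linked to the spliceosome. Cells were precultured at 30 °C in YES and grown to exponential phase at 37 °C in EMM50. Strand-specific libraries of total RNA depleted of ribosomal RNA were read as single reads of 100 bases on 2 lanes, at a stated mean of 11.8 M reads per library. Mating type differed together with pht1, so that a difference due to pht1 and one due to mating type cannot be told apart.

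Each deletion strain was compared with wild type, and the values below are the authors' deposited log2 fold changes and adjusted p-values. The records state 3 replicates per genotype, while 4 wild type libraries are listed. The deposited folds do not show which of the 4 were used. A gene is said to have risen or fallen where the deposited adjusted p was under 0.05. Where 3 values of a gene stand together without labels, they are those of the xap5, the pht1 and the double deletion, in that order. The deposited tables hold no library values, so each fold stands without a spread or a depth, and a fold cannot be divided into fewer cells with the RNA and less RNA per cell. The labels do not say that replicates came from separate cultures, so the p-values cover only the spread between these libraries. Passing the threshold in 1 comparison and not in another is no test of the difference between them, and none was run.

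In a splicing reaction the U1 snRNP pairs with the 5′ end of the intron, the U2 snRNP takes the branch site, and the U4/U6.U5 tri-snRNP then joins and is rearranged into the catalytic centre. The Prp19 complex, built around Prp19 and Cdc5, stabilises that centre, and DEAH-box helicases such as Prp22 and Prp43 release the product and the spent machine. A ring of Sm proteins sits on the U1, U2, U4 and U5 RNAs and a ring of LSm proteins on the U6 RNA. Introns of fission yeast are short, and many of its genes carry them.

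In the double deletion 31 of the 74 splicing genes fell (41.9%) and 14 rose (18.9%) in the authors' deposited table. Of all sense entries 34.3 percent fell and 30.5 percent rose there, and of protein-coding entries 38.2 and 27.3 percent. The share of members that fell was thus near that of protein-coding entries, while the share that rose was lower. Losses were unevenly spread over the kinds of gene: of the 40 members chosen by an snRNP term alone, 23 fell and 3 rose, with a median deposited log2 fold of -0.32. Of the 34 described by splicing or spliceosome, 8 fell and 11 rose, with a median deposited log2 fold of 0.07. The 34 include the tRNA splicing genes, mss51 and min8, of which sen15, sen54, mss51 and min8 rose there and sen34 fell. The difference between these lists was not tested. Over all 74 the median deposited log2 fold was -0.17, beside -0.05 for all sense entries and -0.13 for protein-coding entries. Without the 33 members that overlap another entry, 18 of 41 fell (43.9%) and 6 rose (14.6%). Apart from min8, no member passed 1 on the log2 scale in any deposited comparison.

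In the xap5 deletion 12 members fell (16.2%) and 6 rose (8.11%), beside 20.6 percent lower and 21.1 percent higher among all sense entries of the authors' deposited table. The members' deposited log2 folds lay between -0.57 and 0.69, with a median of -0.06 beside -0.01 for all entries. With pht1 alone deleted, 8 members fell (10.8%) and 4 rose (5.41%), beside 11.1 percent lower and 13.5 percent higher among all deposited sense entries. Deposited log2 folds of the members there lay between -0.74 and 0.58, with a median of -0.07 beside -0.02 for all entries. Of protein-coding entries, 23 percent fell and 18.6 percent rose in the xap5 deletion, and 12.1 and 11.9 percent in the pht1 deletion. The members' shares lay below both backgrounds, except that the share that fell in the pht1 deletion was near them. Wild type is the reference in all 3 comparisons, so values of 1 gene across them are set side by side and not compared by a test.

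**Figure D1:**
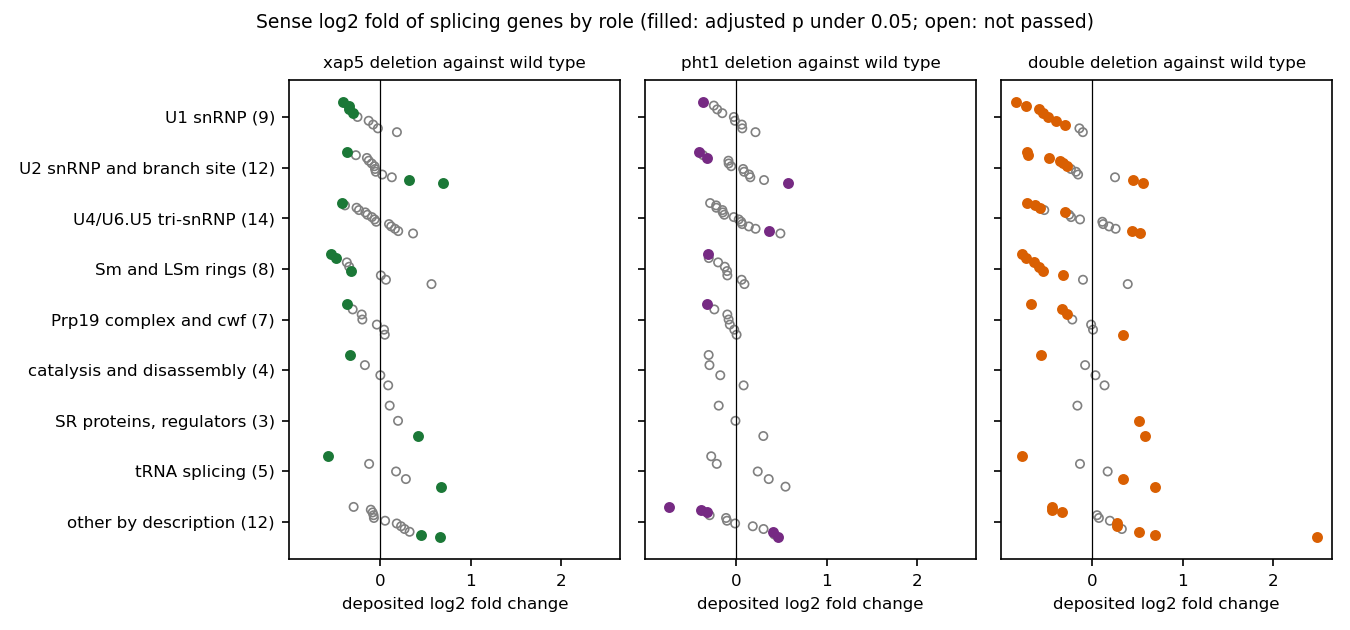
Deposited log2 fold change (x axis) of the 74 splicing genes, sorted within role groups (y axis, number of genes in brackets), for each deletion against wild type; each point is a gene, filled where the deposited adjusted p was under 0.05. In the double deletion 7 of 9 U1 snRNP genes and 6 of 8 ring genes lie to the left of 0 as filled points, and min8 at 2.48 is the only point past 1.

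The U1 snRNP recognises the 5′ splice site, and those of its genes that passed the threshold did so in 1 direction only. Values that did not pass lay on both sides of 0, such as usp103 at 0.19 without xap5 and luc7 at 0.22 without pht1. Of the 9 U1 members 7 fell and none rose in the double deletion, with a median deposited log2 fold of -0.49, where 34.3 percent of all sense entries fell. By the deposited adjusted p-values 4 of 9 fell and none rose without xap5, where 20.6 percent of all sense entries fell. Without pht1 prp40 was the 1 that fell (11.1%), which equals the 11.1 percent of all sense entries. Of the 4 U1 genes that overlap no other entry, 2 fell in the double deletion. The lowest was usp109 (SPBC1289.12, chrII:4405924-4407803, plus strand), which codes for an RNA-binding protein described as U1-associated. Its deposited log2 folds were -0.08, -0.01 and -0.83, and the latter alone passed (adjusted p = 2.75e-06). The gene that lies 37 bases upstream on the same strand, spf38, codes for a splicing factor of the U5 particle and had deposited log2 folds of 0.12, 0.36 and 0.26 in the same order, so that these neighbours differed in sign in the double deletion.

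For prp39 (chrII:3429769-3432178, plus strand), which codes for a U1 protein, the deposited log2 folds were -0.41, -0.24 and -0.73, with an adjusted p of 1.04e-08 in the double deletion. For prp40, which bridges U1 and the branch site in budding yeast, the deposited log2 folds were -0.30, -0.37 and -0.49, each with an adjusted p under 0.05 (0.0314, 0.0138 and 0.000144). It was the U1 gene that passed in every comparison. The core U1 protein gene usp101 had deposited log2 folds of -0.34, 0.06 and -0.59, and usp102, which codes for another core U1 protein, had -0.25, -0.15 and -0.54. The first of these fell in the xap5 and the double deletion, the second in the double deletion alone. Deposited log2 folds of usp107 were -0.35, -0.21 and -0.39, with the xap5 and double deletion values past the threshold. Neither usp103, also a core U1 protein gene (-0.14 in the double deletion), nor luc7 (-0.10), whose product contacts the 5′ splice site, passed in any deposited comparison.

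Sm and LSm proteins form the rings on the spliceosomal RNAs. The rule chose 8 of their genes, of which 6 fell and none rose in the double deletion, with a median deposited log2 fold of -0.56. With the other 6 Sm genes, which the deposited descriptions name without a U term, 11 of 14 ring genes fell and none rose, 6 of 7 in the Sm ring (median -0.65) and 5 of 7 in the LSm ring (median -0.54). In the xap5 deletion 4 of these 14 fell and in the pht1 deletion lsm7 alone, again with none rising in the deposited table. Of all sense entries 34.3, 20.6 and 11.1 percent fell in the double, the xap5 and the pht1 deletion. Of the 8 ring genes that overlap no other entry, 6 fell in the double deletion.

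Among the LSm genes, lsm5 (SPBC20F10.09, chrII:3301295-3302135, plus strand) had deposited log2 folds of -0.54, -0.30 and -0.77, with adjusted p-values of 0.00122, 0.122 and 9.95e-07. In the xap5 and the double deletion it was the lowest ring gene among the members. For lsm3 the deposited log2 folds were -0.48, -0.10 and -0.73, and for lsm7 they were -0.32, -0.31 and -0.54. The latter passed the deposited threshold in each comparison. For lsm2 and lsm4 the double deletion alone passed, at deposited log2 folds of -0.58 and -0.32. The gene lsm8, whose product marks the nuclear ring on U6 where Lsm1 marks the cytoplasmic one, had positive deposited log2 folds of 0.57, 0.06 and 0.40, none past the threshold, and lsm6 lay within 0.10 of 0 throughout.

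Within the Sm ring the lowest was smd1, at deposited log2 folds of -0.48, -0.11 and -0.87 (adjusted p in the double deletion 2.9e-11). The deposited double deletion value was -0.83 for smd2, -0.69 for sme1, -0.65 for smd3, -0.64 for smg1 and -0.42 for smf1, each with an adjusted p under 0.05. Only smb1 did not pass, at a deposited log2 fold of -0.01. The 11 ring genes that fell thus spanned deposited log2 folds from -0.87 to -0.32.

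**Figure D2:**
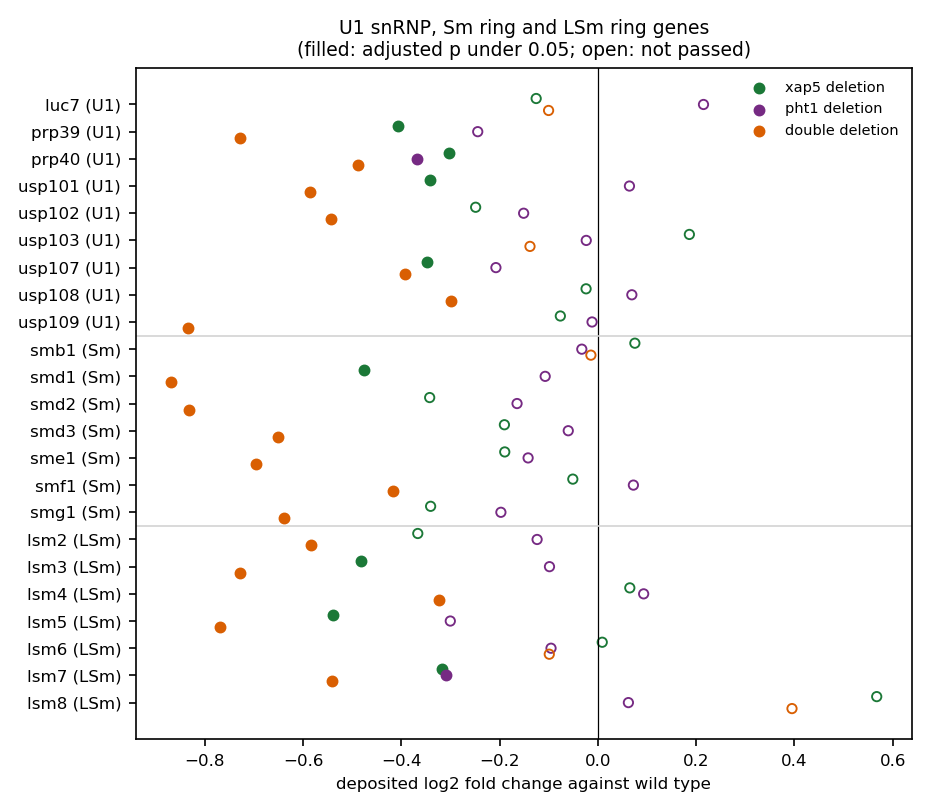
Deposited log2 fold change against wild type (x axis) of 9 U1 snRNP genes, 7 Sm genes and 7 LSm genes (y axis) in the 3 deletion strains; filled circles had a deposited adjusted p under 0.05, open circles did not. In the double deletion 18 of these genes are filled, all to the left of 0, from -0.30 for usp108 to -0.87 for smd1.

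The U2 snRNP and the proteins that prepare the branch site were mixed. Of 12 members 6 fell and 2 rose in the double deletion, 1 fell and 2 rose in the xap5 deletion, and 2 fell and 1 rose in the pht1 deletion, by the deposited adjusted p-values. In the double deletion 50 percent thus fell and 16.7 percent rose, beside 34.3 and 30.5 percent of all sense entries. Without xap5 the shares were 8.33 and 16.7 percent, beside 20.6 and 21.1 percent. Without pht1 they were 16.7 and 8.33 percent, beside 11.1 and 13.5 percent. The lower genes in the double deletion included prp12, the counterpart of human SF3B3 (deposited log2 folds -0.12, -0.32 and -0.71, the latter pair past the threshold), and msl1, which codes for U2B″ (-0.09, -0.36 and -0.71). Of the SF3a and SF3b subunit genes, sap114 and sap145 fell in the double deletion too, at deposited log2 folds of -0.47 and -0.35. The gene prp10, the counterpart of SF3B1, the subunit that clamps the branch site, had deposited log2 folds of -0.06, -0.41 and -0.15 and passed only in the pht1 deletion. The SF3b gene sap49 had the largest rise of any member in the xap5 deletion, with deposited log2 folds of 0.69, 0.31 and 0.25. The SF3a gene sap61 fell in the xap5 deletion and in the double deletion, at deposited log2 folds of -0.37 and -0.32, and had -0.05 in the pht1 deletion.

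A pair of U2-linked genes rose in the double deletion. For bpb1, the branch point binding protein, the deposited log2 folds were 0.02, 0.58 and 0.45, with the pht1 and double deletion values past the threshold. For uap2, a U2-associated protein, they were 0.13, 0.14 and 0.56, with the double deletion alone past it in the deposited table. The gene lea1, whose product pairs with that of msl1 on the U2 particle, passed in opposite directions: its deposited log2 folds were 0.32 (adjusted p = 0.0254), 0.09 and -0.28 (adjusted p = 0.0458). Both of those p-values lie close to the threshold.

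Of 14 genes of the tri-snRNP, 4 fell and 2 rose in the double deletion, 1 fell in the xap5 deletion and 1 rose in the pht1 deletion, by the deposited adjusted p-values. In the double deletion 28.6 percent thus fell and 14.3 percent rose, under the 34.3 and 30.5 percent of all sense entries. The 7.14 percent that fell without xap5 and rose without pht1 stand beside 20.6 and 13.5 percent of all sense entries. The genes for the largest proteins of the particle went up: spp42, the Prp8 counterpart at the heart of the catalytic centre (SPAC4F8.12c, chrI:2650719-2658024, plus strand), had deposited log2 folds of -0.14, 0.03 and 0.53 (adjusted p = 0.000392 in the double deletion). The gene for the helicase Brr2, which unwinds U4 from U6, had deposited log2 folds of -0.06, 0.07 and 0.45. Neither passed in a single deletion. The small protein gene dim1 fell in the double deletion (deposited log2 folds -0.16, -0.29 and -0.72), as did prp38, needed for spliceosome activation (-0.39, 0.14 and -0.63), and snu66 (-0.42, 0.22 and -0.57). Of these, snu66 fell in the xap5 deletion too, and spf38 gave the rise in the pht1 deletion at a deposited log2 fold of 0.36. Subunits prp1 (-0.13), prp3 (-0.23) and prp31 (0.11) did not pass in the double deletion by the deposited values.

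Of 7 members of the Prp19 complex and the Cdc5-associated proteins, 3 fell (42.9%) and 1 rose (14.3%) in the double deletion. Of all sense entries 34.3 percent fell and 30.5 percent rose there. The gene cdc5 itself, a Myb-related core subunit, fell in every comparison, at deposited log2 folds of -0.36, -0.32 and -0.68 (adjusted p = 0.00885, 0.0392 and 1.43e-07). Without both genes, the deposited log2 fold of prp45, the SKIP counterpart, was -0.33 and that of cwf22 was -0.28, both past the threshold, and cwf16 rose at 0.34. The members cwf28 (-0.01) and syf2 (0.01) were near 0 there in the deposited table. Of 4 members that act at the catalytic steps or in disassembly, prp18, a second-step factor, fell in the double deletion (deposited log2 folds -0.17, -0.30 and -0.56) and slu7, which acts with it, fell in the xap5 deletion alone (-0.33, 0.08 and -0.08).

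The remaining members were factors placed with the regulators, tRNA splicing genes and genes on none of the role lists, and 9 of the 14 rises in the double deletion were among them. By group, 66.7 percent of 3, 40 percent of 5 and 41.7 percent of 12 rose there, beside 30.5 percent of all sense entries. How close each stands to the core machine was not measured. Of 3 splicing associated factors placed with the regulators, saf4 (deposited log2 folds 0.41, -0.19 and 0.59) and saf3 (0.20, 0.30 and 0.52) rose in the double deletion. Of 12 further members 5 rose and 3 fell in the double deletion, 2 rose in the xap5 deletion, and 2 rose and 3 fell in the pht1 deletion by the deposited adjusted p-values. The 25 percent that fell in the double deletion stand beside 34.3 percent of all sense entries. Without xap5 16.7 percent rose, beside 21.1 percent. Without pht1 16.7 percent rose and 25 percent fell, beside 13.5 and 11.1 percent. Both mss51 and min8 are among the rises in the xap5 and the double deletion. The SR-like gene SPAC222.18 had deposited log2 folds of 0.27, -0.11 and 0.52. The lowest deposited log2 fold of any member in the pht1 deletion was that of rbm10, an RNA-binding protein gene, at -0.74, beside -0.07 without xap5 and -0.33 without both. The deposited values also passed there for 3 more genes: mug161, of the CwfJ family, had 0.18, -0.39 and 0.08, sqs1, a G-patch protein gene, -0.08, -0.32 and 0.20, and dre4, a splicing associated factor by its description, 0.23, 0.41 and 0.28.

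The gene min8 (SPAPB8E5.10, chrI:4926538-4928138, plus strand) had deposited log2 folds of 0.67, 0.42 and 2.48 (adjusted p = 1.51e-31 for the latter), the largest of any member in the double deletion. Its description concerns a transcript spliced in meiosis, not a factor that splices. The mitochondrial gene mss51 rose in every comparison, at deposited log2 folds of 0.45, 0.46 and 0.69. In tRNA splicing, where an endonuclease of several subunits cuts the intron, sen34, a catalytic subunit gene, fell (deposited log2 folds -0.57, -0.27 and -0.77) and sen15 rose (0.67, 0.55 and 0.69), each in the xap5 and the double deletion. The structural subunit gene sen54 rose in the double deletion at a deposited log2 fold of 0.34. The subunit genes of this enzyme thus moved in opposite directions.

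The pathway holds 62 further genes that the descriptions do not name by the rule's terms (4 more with a matching name but another role in their description were set aside). Of the 62, 24 fell (38.7%) and 9 rose (14.5%) in the double deletion, by the deposited table, where 34.3 percent of all sense entries fell and 30.5 percent rose. Among protein-coding entries 38.2 percent fell and 27.3 percent rose, so that the share that fell was near the background. Of 6 further genes of catalysis and disassembly, 4 fell and 1, the helicase gene prp16, rose in the double deletion (deposited log2 fold 0.33). Those that fell included the helicase gene prp43 (deposited log2 folds -0.46, -0.08 and -0.99), prp22 (-0.28, -0.42 and -0.63) and dbr1, which opens the lariat intron (-0.60, -0.24 and -0.73). The SR protein genes srp1 and srp2, which help to define exons, fell in the xap5 deletion (deposited log2 folds -0.44 and -0.62) and in the double deletion (-0.72 and -0.55). The kinase gene lkh1, of the LAMMER family that phosphorylates SR proteins, rose in each comparison, at deposited log2 folds of 1.15, 0.73 and 2.44, the only gene of the 62 past 1 with an adjusted p under 0.05.

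Genes of the spliceosome are themselves spliced: 48 of the 74 members have an annotated intron (64.9%), beside 48.6 percent of 5039 protein-coding entries. Of these 48, 24 fell and 8 rose in the double deletion (median deposited log2 fold -0.25), while of 26 without an intron 7 fell and 6 rose (median -0.09). The same direction was seen over all protein-coding entries, of which 41.3 percent fell and 21.8 percent rose with an intron (median deposited log2 fold -0.17) and 35.3 percent fell and 32.5 percent rose without (-0.06). The differences were not tested.

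Reads from the introns could be read separately, because 3316 of the 6121 regions in the authors' deposited intergenic table (54.2%) are exactly an annotated intron of assembly ASM294v3, once the deposited start is counted from 1. Among them are 65 of the 114 introns of splicing genes, from 31 genes. The other 49 equal none of the deposited regions and have no value here. The reference holds 5323 annotated introns, so the 3316 and the 65 are the part that the deposited regions cover. All 65 begin with GT and end with AG. No source names the counting strand of this table, so intron reads and antisense reads cannot be told apart, and the table may have been normalised apart from the sense table. This look at introns was chosen after the data were seen.

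Introns of splicing genes rose in 8 cases (12.3%) and fell in 3 (4.62%) in the double deletion, beside 9.68 percent higher and 1.48 percent lower among all 3316 introns of the deposited table. Their median deposited log2 fold was 0.32, beside 0.37 for all introns. The fold of the intron lay above that of its own gene for 50 of 65 (76.9%), by a median of 0.56 on the log2 scale, beside 75.9 percent and 0.51 for all introns with a gene value in the deposited tables. Introns of splicing genes therefore lay close to introns at large. No intron passed in the xap5 deletion, where 1.39 percent of all introns rose and 0.543 percent fell (3 of the 65 had an unadjusted deposited p under 0.05), and 1 rose in the pht1 deletion, where 0.754 percent of all rose and 0.0905 percent fell.

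The 11 introns that passed in the double deletion and the intron of smg1 that passed in the pht1 deletion are shown so that their splice sites can be read beside their values (RefSeq assembly ASM294v3, 5′ to 3′ along the gene). Capitals mark the first 6 bases, the last 3 bases and the branch motif nearest to the end.
msl1 intron 1, chrII:1375421-1375493, minus strand: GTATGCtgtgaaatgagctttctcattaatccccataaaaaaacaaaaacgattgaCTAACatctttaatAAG
uap2 intron 1, chrII:4385388-4385449, minus strand: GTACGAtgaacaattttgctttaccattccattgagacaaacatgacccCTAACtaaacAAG
uap2 intron 2, chrII:4384705-4384815, minus strand: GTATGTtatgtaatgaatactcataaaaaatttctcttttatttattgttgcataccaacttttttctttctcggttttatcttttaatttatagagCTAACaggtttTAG
spf38 intron 3, chrII:4404863-4404911, plus strand: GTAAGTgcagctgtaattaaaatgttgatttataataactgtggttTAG
SPAC222.18 intron 1, chrI:979022-979119, plus strand: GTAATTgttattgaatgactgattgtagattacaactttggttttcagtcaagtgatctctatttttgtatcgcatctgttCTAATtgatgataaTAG
sen54 intron 2, chrIII:95047-95115, plus strand: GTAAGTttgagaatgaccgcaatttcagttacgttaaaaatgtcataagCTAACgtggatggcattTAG
cdc5 intron 2, chrI:2694837-2694902, plus strand: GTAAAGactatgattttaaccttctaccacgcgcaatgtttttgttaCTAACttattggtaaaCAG
prp45 intron 1, chrIII:1502721-1502763, plus strand: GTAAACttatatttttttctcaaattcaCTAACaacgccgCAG
dim1 intron 4, chrIII:878155-878207, minus strand: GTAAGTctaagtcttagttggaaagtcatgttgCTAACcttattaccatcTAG
prp3 intron 2, chrI:4404377-4404422, plus strand: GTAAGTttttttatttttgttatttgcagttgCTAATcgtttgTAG
lsm5 intron 3, chrII:3301667-3301714, plus strand: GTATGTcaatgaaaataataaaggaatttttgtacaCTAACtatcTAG
smg1 intron 1, chrII:3421370-3421416, plus strand: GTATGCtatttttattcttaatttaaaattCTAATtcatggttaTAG

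In 3 of these genes the sense entry fell while an intron rose. The intron of msl1 had a deposited log2 fold of 1.75 in the double deletion (adjusted p = 0.0145), while the gene stood at -0.71. Intron 2 of cdc5 stood at a deposited log2 fold of 1.78 (adjusted p = 0.0251) with the gene at -0.68. Intron 1 of prp45 stood at 2.26 (adjusted p = 0.0322) with the gene at -0.33. The other listed intron of each did not pass there, at 1.52 for cdc5 intron 1 and 0.13 for prp45 intron 2. The gene cdc5 overlaps another entry, as do SPAC222.18, sen54 and prp3 below, so the intron reads of these genes may not all be their own. In uap2 both the gene (0.56) and its introns rose, at deposited log2 folds of 1.52 (adjusted p = 4.8e-05) and 1.35, and in sen54, SPAC222.18 and spf38 the deposited intron values were 1.83, 1.09 and 1.13. The lower introns were intron 2 of prp3 (deposited log2 fold -2.51), intron 3 of lsm5 (-2.15) and intron 4 of dim1 (-1.18), whose genes stood at -0.23, -0.77 and -0.72. The other introns listed for prp3, lsm5 and dim1 did not pass there. Their deposited log2 folds ran from -0.98 at lsm5 intron 2 to 0.49 at prp3 intron 1. The first intron of smg1 had very large deposited log2 folds of 5.60, 6.58 and 4.92, of which the pht1 value alone passed (adjusted p = 0.00569), while the gene stood at -0.34, -0.20 and -0.64. Folds of that size with adjusted p-values of 0.077 and 0.115 in the other 2 comparisons cannot be weighed here without the reads behind them.

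Branch sites of fission yeast introns resemble CTAAC, and 4 forms that do not contain each other were searched on the transcribed strand only, namely CTAAC itself, then CTGAC, as well as CTAAT, and lastly TTAAC. At least 1 was found in 55 of 65 introns of splicing genes (84.6%), in 2942 of 3316 introns of the table (88.7%) and in 11 of the 12 introns that passed in any comparison, spf38 intron 3 being without. The 5′ splice site GTANGT, the usual start of a fission yeast intron, opened 30 of the 65 (46.2%), 6 of the 12 that passed, and 1828 of all 3316 (55.1%). Of the 8 introns that rose in the double deletion, 3 start with it (uap2 intron 2, spf38 intron 3 and sen54 intron 2), as do the 3 that fell. With so few introns this is a description of these sequences.

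**Figure D3:**
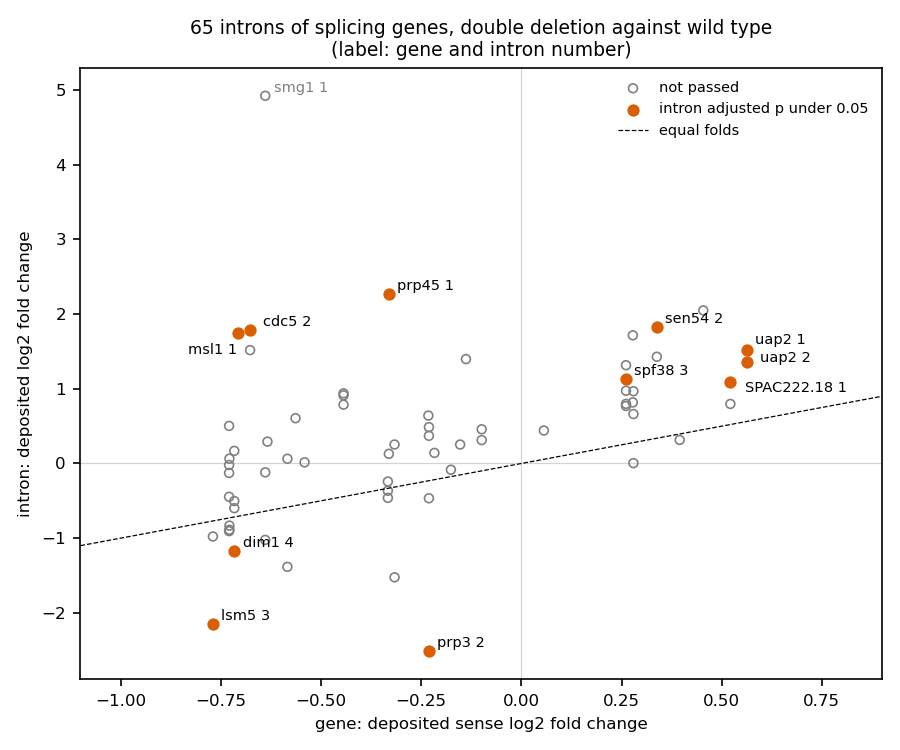
Deposited log2 fold change of 65 introns of splicing genes (y axis) against that of the sense entry of the same gene (x axis), double deletion against wild type; each circle is an intron, filled where its deposited adjusted p was under 0.05, and the dashed line marks equal folds. Of the circles, 50 lie above the line, and msl1, cdc5 and prp45 lie at the upper left with a gene below 0 and an intron above 1.7.

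Antisense RNA was listed for 16 of the 74 splicing genes (21.6%), beside 20.6 percent of protein-coding entries; the deposited antisense table states that it lists only entries significant at 0.01, so the other 58 carry no value. Of these 16 antisense entries 10 rose and 4 fell in the double deletion, beside 76.7 percent higher and 9.55 percent lower among all 1561 entries of the authors' deposited table. In the pht1 deletion 4 rose and 2 fell, beside 42.6 percent and 3.78 percent, and in the xap5 deletion 3 rose and none fell, beside 33 percent and 1.6 percent of the deposited entries. Of the 1045 gene entries among them, 76.5 percent rose and 10.2 percent fell in the double deletion. In the pht1 deletion these shares were 41.6 and 4.78 percent. In the xap5 deletion they were 22.3 and 0.766 percent, where 18.8 percent of the 16 rose. Since the table was filtered on these same values, the counts describe listed entries and not all splicing genes.

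The largest antisense rise was at prp40, with deposited antisense log2 folds of 1.77, 1.69 and 2.86, the latter past the threshold. At syf2 they were 2.45, 1.14 and 2.74, and at cwf22 1.10, 0.82 and 2.68, both past it in the xap5 and double deletion. Other antisense rises in the double deletion were those at sqs1 (deposited log2 fold 2.58), usp101 (2.09), cwf28 (2.06), bpb1 (1.89), prp38 (1.84), spp42 (1.76) and prp12 (1.13). The sense entries under these rises went in both directions: by the deposited values prp40, cwf22, usp101, prp38 and prp12 fell, bpb1 and spp42 rose, and syf2, sqs1 and cwf28 did not pass. The antisense entries of sen34 and prp1 passed in the pht1 deletion and in neither other comparison, at deposited log2 folds of 1.06 and 1.54.

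The LSm genes lsm5 and lsm7 stood apart. Their deposited antisense log2 folds were -0.54, -2.72 and -4.98 for lsm5 and -1.32, -3.03 and -3.25 for lsm7, past the threshold both without pht1 and without both genes. Sense entries of both fell in the double deletion, and lsm5 and prp3, with lower antisense there, are also 2 of the 3 genes with a lower intron. Of 11 other pathway genes with an antisense entry, 8 rose and 2 fell in the double deletion. Those 2 were prp43 (deposited antisense log2 folds -0.22, -2.25 and -3.34, the latter alone past the threshold) and smf1 (-0.96 in the double deletion). Smaller antisense losses were found in the double deletion at min8 (deposited log2 fold -0.75) and prp3 (-0.69), where protein-coding genes run the other way: SPAC1B3.01c covers 1439 bases of min8 and had a deposited sense log2 fold of -1.04, and uso1 covers 3381 bases of prp3 and had -0.95. Antisense reads there and sense reads of the overlapping gene cannot be told apart. The same limit holds at members with higher antisense. The gene sea2 covers 2219 bases of spp42 (deposited sense log2 fold 0.20 in the double deletion, not past the threshold). The gene fes1 covers 74 bases of cwf28 (2.29, 0.51 and 1.60). Further short overlaps were with ast1 at bpb1 (51 bases), prs1 at sen34 (143 bases) and ofd1 at prp1 (172 bases). Likewise annotated antisense RNAs lie across sqs1 (SPNCRNA.1428), syf2 (SPNCRNA.1544, deposited log2 fold 0.96 in the double deletion), usp101 (SPNCRNA.829, 1.14) and cwf28 (SPNCRNA.1653, 1.53). Across 1335 bases of prp1 lies SPNCRNA.1539, with deposited log2 folds of 0.28, 1.45 and 2.19, the latter pair past the threshold, although the antisense entry of prp1 itself stood at 0.24 in the double deletion and did not pass.

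**Figure D4:**
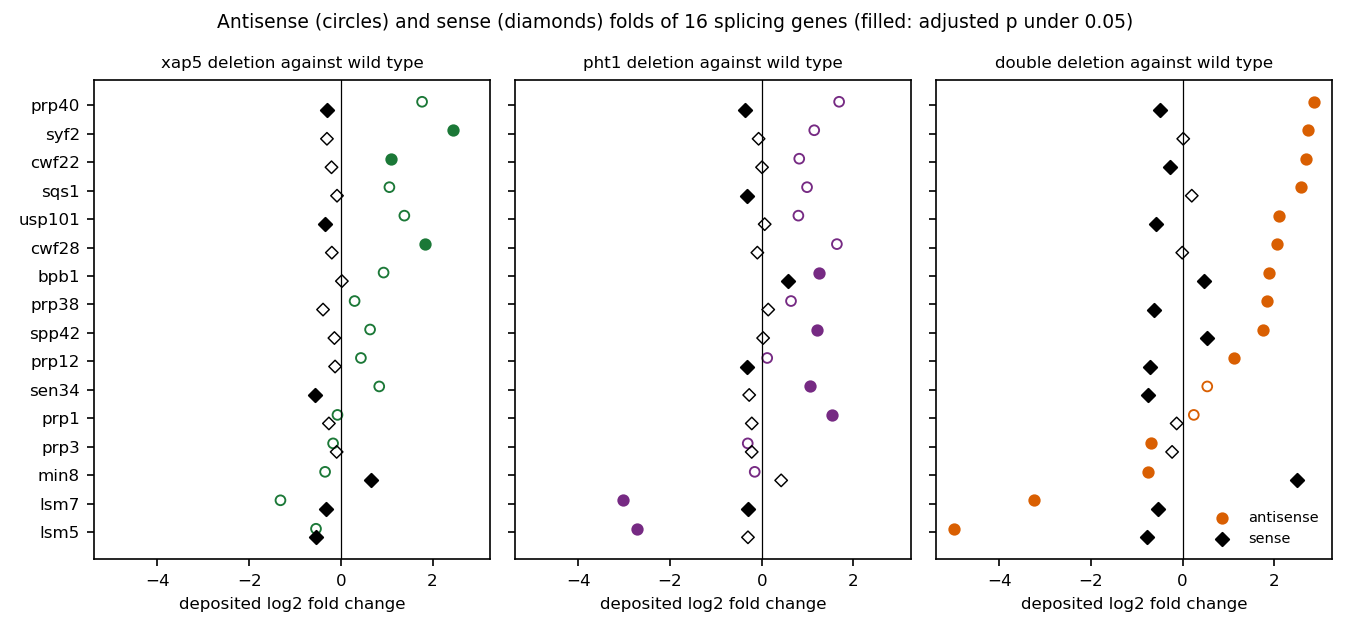
Deposited log2 fold change (x axis) of antisense signal (circles) and of the sense entry (diamonds) for the 16 splicing genes with an antisense entry (y axis), in each deletion against wild type; filled symbols had a deposited adjusted p under 0.05. In the double deletion 10 circles are filled to the right of 0, up to 2.86 at prp40, and those of lsm7 and lsm5 lie at -3.25 and -4.98.

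The 250 bases upstream of each member were searched on both strands for 5 promoter motifs, as a description. TATAAA was found before 36 of the 74 (48.6%), beside 44.4 percent of 5039 protein-coding entries, and before 1 of 9 U1 genes and 7 of 14 ring genes. The heat shock element core GAANNTTC was found before 13.5 percent of members and 9.43 percent of all, and TGACGT before 4.05 and 5.5 percent. ACGCGT was found before 1 member and 2.64 percent of all, and CAGTCACA before none of the members and 2.66 percent of all. None of these shares was tested, and absent letters say nothing of a factor.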

How the data were processed

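Per the labels, strand-specific RNA sequencing gave 13 libraries in 4 groups. The authors deposited 4 tables of their own comparisons with wild type, holding log2 fold changes, p-values and adjusted p-values per feature, and no value per library was used here. The submitters' processing notes name BWA 0.5.8c and edgeR, with no role and no edgeR version, and a table header names the annotation Ensembl EF2.12. The headers give logFC without a base, and base 2 follows edgeR's convention. Of the deposited p-values for sense entries 55 exceed 1, none of them of a member; they were left as deposited. No source states the normalisation or a filter on low counts, and the depth of each library is unknown, so no counting interval is given.

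Members were found by text search and counted at a deposited adjusted p under 0.05 with Python 3.11.15 and pandas 2.3.3. No test was run here on the folds. The recomputed Benjamini-Hochberg adjustment was tested on simulated data. Members, role lists and rules were chosen with earlier results of these data known. Genes named are the 8 highest and 8 lowest that passed in each comparison, those that passed in all 3 or in opposite directions, the largest of each role, those with an antisense entry that passed, and a few others given for their place in the machine. Coordinates and introns come from RefSeq ASM294v3, since 3316 deposited regions equal its introns. The long terminal repeat table was not used. Alternatives were an adjusted p under 0.01, recomputed adjustment, a narrower word list, centring on the median fold, and leaving out genes that overlap another.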

Additional observations from a re-analysis of the deposited data

How the results depend on the processing

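Of 59 alternative values for 16 results, 35 stayed within 1.5 times the count (or, for a median, near it) and 24 moved further. The alternatives reuse the deposited folds, so they could hardly turn the direction of a called gene and do not test it. At an adjusted p under 0.01, members higher and lower were 2 and 7 in the xap5 deletion and 2 and 2 in the pht1 deletion, 9 rose in the double deletion, 0 antisense entries rose in the xap5 deletion, and 2 introns rose and 0 fell in the double deletion. With the words splicing or spliceosome alone (34 genes), 3, 4 and 8 members fell in the xap5, pht1 and double deletion, and the median log2 fold was 0.0339 in the xap5 and 0.0665 in the double deletion, against a negative median over all members. In the double deletion 11 of these 34 rose and 8 fell, beside 14 and 31 of all members, so the balance turned. Part of that rests on genes outside the spliceosome: sen15, sen54, mss51 and min8 are among the 11, and sen34 is among the 8. Without the 33 members that overlap another entry, which leaves 41, 2 rose and 6 fell in the xap5 deletion, 2 rose and 4 fell in the pht1 deletion, and 6 rose and 18 fell in the double deletion. In that setting 2 of 4 U1 genes and 6 of 8 ring genes fell, 5 introns rose in the double deletion and 0 antisense entries rose in the pht1 deletion; fewer genes stand behind these counts. Without genes that have an antisense entry, 1 intron fell. Recomputed adjustment (8 sense counts) and centring (the same 8 counts and 3 medians) moved none of these that far; neither was run on the antisense or intron counts; the median fold of all sense entries was -0.01, -0.02 and -0.05. The ring, U1 and intron alternatives were chosen after seeing the data. No paired analysis was possible because the deposited tables hold no value per library. Without depth or spread, a fold that did not pass is not shown to be absent.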
